A study of Rattus norvegicus with 4 samples.

Results

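The cells described here were the Cd79b+ Ighm+ cells of rat hippocampus, 284 of 28879 filtered cells (0.983%, exact 95% interval 0.873 to 1.10%). Filtered cells held 500 or more UMIs (unique molecular identifiers, each counting 1 captured transcript) from 300 or more genes, no more than 20% of them mitochondrial. Members were selected on these UMI counts: at least 2 UMIs of Cd79b and at least 1 of Ighm, no UMI of the T cell receptor genes Cd3d, Cd3e and Cd3g, and sums of at most 5 over C1qa, C1qb and C1qc, 5 over Mag, Mog and Mobp and 3 over Cldn5 and Flt1. Cd79b encodes a signalling chain of the B cell receptor and Ighm the heavy chain of IgM. Because the rule used measured values of these same cells, every value below is a description and none is a test.

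The data were droplet single-cell RNA-seq of hippocampus from wild type, male adult Sprague Dawley rats aged 10 to 12 months. The series lists 4 titled samples, 1 library each: NC (negative control), MCAO (a stroke model, in which a monofilament blocks the middle cerebral artery of one hemisphere), DEPR and MD, both described by chronic stress. The design text gives MCAO to 2 groups of 10 rats, 1 of which was also stressed, and names 5 hippocampi a group for sequencing, so a library may pool animals. All libraries stand in 1 matrix whose barcodes carry 4 suffixes (sets 1 to 4), and nothing used here ties a set to a title. Each set's own value is therefore given, and no difference between NC, MCAO, DEPR and MD was computed. Tissue was enzymatically dissociated and red cells were lysed, so shares are shares of cells recovered. Of the barcode sequences, 96 occurred in more than 1 set, among them that of 1 member and those of 4 T cells. Scrublet, which marks likely doublets, marked 942 filtered cells, 65 of them T cells and 0 of them members.

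B cells recognise antigen through a surface immunoglobulin coupled to CD79A and CD79B, and present peptides on MHC class II molecules. After activation some differentiate into antibody-secreting plasma cells: the transcription factors IRF4, BLIMP1 (Prdm1) and XBP1 enlarge the endoplasmic reticulum (ER), immunoglobulin transcripts come to dominate the RNA, and the B cell programme held by PAX5 is turned off. Few of either cell type are found in healthy brain tissue, most of them in the meninges and around vessels.

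The members were 77, 89, 35 and 83 cells in sets 1 to 4, which is 1.17, 1.08, 0.659 and 0.947% of the filtered cells of each set. The interval of set 3 (0.459 to 0.915%) lay below that of set 1 (0.928 to 1.47%), and the other intervals overlapped. All intervals cover counting error only, and no value has a replicate check. Members were deep, with a median of 19392.5 UMIs (1775 to 109922) against 4043 in T cells and 5146 in all other filtered cells. Their median mitochondrial share was 2.40%, against 5.60 and 6.85%. T cells, the first comparison group, were the 973 cells with a sum of at least 2 UMIs over the Cd3 genes. The T cell rule set no limit on other lineages, unlike that of the members. The second comparison group was the other 27622 filtered cells.

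Plasma cell markers stood out more in these cells than B cell markers did. A list of B cell markers, 14 of 16 found and 1 of them at 0 in members, summed to 314 CPM (counts per 1000000 UMIs) in members, 239 CPM in T cells and 166 CPM in all other cells. That one, Cd79a, listed under the symbol Cd79al, had 0 UMIs in members, T cells and all other cells alike, so it bears on none of them. A list of plasma cell markers, 6 of 7 found, summed to 4750 CPM in members (3943 to 5723 over the sets), 859 CPM in T cells and 267 CPM in all other cells. CPM in members are lowered by the few transcripts that hold most of their RNA, described below. Relative to the median gene, the log2 difference of the B cell list was 1.49 from T cells and 2.61 from all other cells. Each rested on 2 measured genes, 1 higher and 1 lower. The plasma cell list stood at 4.15 and 5.57, on 4 measured genes. In T cells Cd37 alone was at 141 to 203 CPM over the sets. The given marker Cd74, the invariant chain of class II, was at 3554 CPM in members, 1358 CPM in T cells and 2804 CPM in all other cells. They are therefore called by their rule.

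A few transcripts held most of the RNA. The ID AABR07060872.1, which the files and tables used here do not name, took 48.1% of all member UMIs (48.0, 48.5, 39.2 and 51.4% in sets 1 to 4). Igh-6, listed under an immunoglobulin heavy chain symbol, took 6.28%, the unnamed ID AABR07034739.1 5.70% and Ighm 0.527%. Together these 4 made up 60.6% of member UMIs, and 54.6 to 63.9% over the sets. Reads may be divided between Ighm and Igh-6 in a way these files cannot show, so the level of either is uncertain. The oligodendrocyte gate (Mag, Mog and Mobp above 5, few C1q and no Cd3 UMIs), cells that should lack these RNAs, had a median of 0.0283% for AABR07060872.1. After thinning every cell to 1000 UMIs, Igh-6 was found in 59.9% of members, 13.3% of T cells and 8.45% of the oligodendrocyte gate. Ighg1, an IgG heavy chain, was found in 43 members, in 10 of them with at least 2 UMIs, and in 2 of the 7619 cells of the oligodendrocyte gate.

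All members but 1 were high in a single unnamed ID or in neither. AABR07060872.1 took under 1% of the UMIs of 72 members and 1 to 2% in 5, then none between 2 and 10%, and at least 10% in all others, up to 78.6%. AABR07034739.1 took under 1% in 215 members, 1 to 2% in 34, none between 2 and 10%, and up to 73.0% in the rest. At 10%, 206 members were above only for the former, 34 only for the latter, 1 for both and 43 for neither. The limit of 10% was set after the values were seen, and 6 members had their higher share between 2 and 20%.

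**Figure D1:**
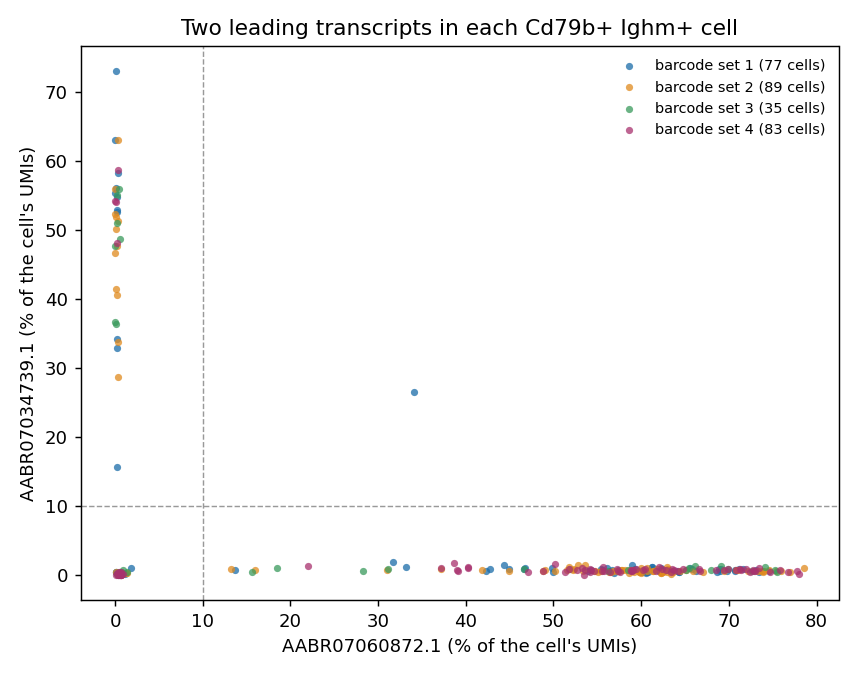
Each point is 1 of the 284 Cd79b+ Ighm+ cells, placed by the share of its UMIs (%) that are AABR07060872.1 (x) and AABR07034739.1 (y) and coloured by barcode set; dashed lines mark 10%. Cells lie along either axis or at the origin, with 1 cell above 10% for both.

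The cells low in both IDs were 7, 8, 11 and 17 in sets 1 to 4, or 9.09% (3.73 to 17.8%), 8.99% (3.96 to 16.9%), 31.4% (16.9 to 49.3%) and 20.5% (12.4 to 30.8%) of the members of each set. Set 3 had the highest share, and its interval overlapped those of sets 1 and 2 only at the edge. Median UMIs were 6959 in these 43 cells, but outside the 4 leading transcripts the median was 6847 UMIs, close to the 6430.0 of the AABR07060872.1 cells and the 5879 of the AABR07034739.1 cells. Levels within members are given as CPM of these remaining UMIs.

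Genes of antibody secretion separated the same cells, although they were not used to divide them. Jchain joins IgM and IgA into polymers, and Mzb1 is an ER chaperone of immunoglobulin assembly. Their sum per cell had a median of 12916 CPM of remaining UMIs in the 206 AABR07060872.1 cells (lowest 2576, highest 40577). In the 34 AABR07034739.1 cells the median was 12164 (2169 to 26883), and in the 43 cells low in both it was 327 (0 to 1265), with 13 cells at 0. The highest of those 43 thus lay below the lowest of the other 240. Free RNA in the droplets was low for both genes: the oligodendrocyte gate held a UMI of Mzb1 in 2.70% of cells and of Jchain in 0.709%, at a median depth of 5661 UMIs, while 29 of the 43 cells held Mzb1 and 6 held Jchain.

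**Figure D2:**
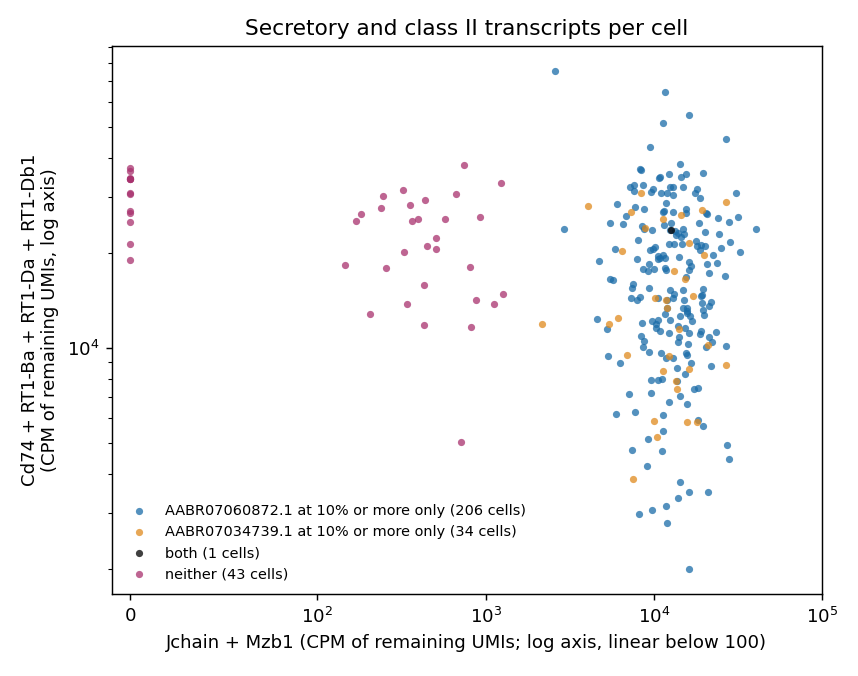
Each point is 1 member, placed by Jchain plus Mzb1 (x) and by Cd74 plus RT1-Ba, RT1-Da and RT1-Db1 (y), both in CPM of the UMIs outside the 4 leading transcripts and on log axes (x is linear below 100), and coloured by which unnamed ID is at 10% or more. The 43 cells low in both lie at or below 1265 on x and between 5040 and 37937 on y, within the y range of the others.

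Other secretory genes followed the same division. Sdc1 (syndecan-1, a surface marker of plasma cells) had 0 UMIs in the 43 cells. Tnfrsf17, the receptor BCMA that sustains plasma cells, was at 569 CPM in the AABR07060872.1 cells, 424 in the AABR07034739.1 cells and 11 in the 43 cells low in both. Ssr4, a subunit of the ER translocon, was at 8940.1, 7898 and 421 CPM in the same order. Pooled and counted per 1000000 of the remaining UMIs, Ighm stood at 17572, 16779 and 653 and Igh-6 at 199574, 259157 and 536. The 43 cells, all with a UMI of Ighm by the rule, thus held little of either. In the other cells these pooled sums were carried by a part of them. Igh-6 took at least 5% of the UMIs in 112 of the 206, 18 of the 34 and 0 of the 43 cells. Ighm did so in 10, 2 and 0 of them, so low levels were not particular to the 43.

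Several genes of the B cell programme went the other way. Cr2, the complement receptor CD21, had all of its 34 UMIs in 13 of the 43 cells, and the B cell regulator Pax5 all of its 3 UMIs in 3 of them. Bank1, a B cell scaffold protein, was at 3.32 CPM in the AABR07060872.1 cells, 0 in the AABR07034739.1 cells and 73.2 in the 43 cells low in both. Cd37, a tetraspanin of mature B cells, was at 35.8, 41.5 and 207 CPM in the same order, and Ebf1, an early B lineage factor, at 19.9, 13.8 and 95.2 CPM. Ms4a1, encoding CD20, did not divide the cells, at 80.2, 106 and 102 CPM. The B cell marker list as a whole was found in all 43 cells, at a median of 1423 CPM of remaining UMIs per cell, against 589 and 652 in the AABR07060872.1 and AABR07034739.1 cells. Without Pou2af1, a coactivator that plasma cells also express, these medians were 1271, 312 and 359. In each set the pooled level of this shorter list was higher in the 43 cells than in the AABR07060872.1 cells.

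Class II genes were present on both sides. Cd74 was at 10112 CPM in the AABR07060872.1 cells, 9319 in the AABR07034739.1 cells and 5885 in the 43 cells low in both, and RT1-Da, a class II alpha chain, at 2168, 1808 and 4731 CPM. Cd74 with 3 RT1 chains summed to a median of 16814 CPM of remaining UMIs in the AABR07060872.1 cells (1993 to 75410), 12920 in the AABR07034739.1 cells and 25533 (5040 to 37937) in the 43 cells, with overlap between all 3. The immediate early gene Fos was at 3694, 2763 and 481 CPM in the same order, and Jun at 4597, 3788 and 516 CPM.

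A small number of members were dividing by their transcripts. Mki67, Top2a, Cenpf and Ube2c, genes of the G2 and mitotic phases, summed to at least 5 UMIs in 8 members (2.82%, 1.22 to 5.47%). The same sum was reached in 23 T cells (2.36%, 1.5 to 3.53%). These shares were counted at full depth, which was greater in members, so they do not rank the groups. After thinning, Mki67 was found in 1.76% of members and 2.38% of T cells. Top2a was then found in 0.704% of members and 1.04% of T cells, and for both genes the intervals overlapped. Of these 8 members, 5 were among the 43 cells low in both IDs and 3 among the AABR07060872.1 cells. They came from every set, with 2, 1, 3 and 2 cells in sets 1 to 4.

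Against T cells, the plasma cell programme stood furthest above and the cytokine and chemokine list furthest below the median gene, among lists with at least 5 measured genes. A gene counted as measured when the mean of both groups' CPM was at least 50, and as higher or lower when the pooled fold was at least 2 or at most 0.5 and lay on the same side of 1 in all 4 sets. Of 1627 measured genes, 62 were higher (3.81%) and 1093 lower (67.2%). The median gene stood at -1.38 on the log2 scale, since 60.6% of member UMIs were 4 transcripts. With TMM scaling, which trims such extremes, the median gene stood at 0.28, and 348 (19.6%) of 1780 genes were higher and 207 (11.6%) lower. Log2 values below are therefore differences from the median gene, while calls use the unshifted folds. Against all other cells, 73 of 1715 genes were higher (4.26%) and 1086 lower (63.3%), with the median gene at -1.39; TMM gave 550 (30.8%) and 316 (17.7%) of 1787, with the median gene at 0.45.

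Both comparison groups held some cells full of the same transcripts. Either unnamed ID took at least 10% of the UMIs in 856 filtered cells, of which 241 were members, 29 T cells and 586 in neither gate. Keeping only T cells with both IDs under 1% left 929 cells, in which Mzb1 was at 5.85 CPM in place of 536, Jchain at 1.67 CPM in place of 141, Tnfrsf17 at 0.209 CPM in place of 19.5 and Cd79b at 1.04 CPM in place of 22.5. The same limit left 26754 of the other cells, with Mzb1 at 5.53 CPM in place of 176 and Jchain at 0.870 CPM in place of 48.3. Against the narrowed T cells, with the median gene at -1.55, Cd79b stood 9.11 above it in place of 4.51, Igh-6 10.94 in place of 3.96 and Pou2af1 7.34 in place of 4.16, while Tnfrsf17 rested on 1 UMI in those T cells, too few for a fold. In the narrowed T cells Cd79b and Pou2af1 had 5 and 10 UMIs, and Jchain and Cryba4, given below, 8 and 4, so their values there are imprecise. The limits on the unnamed IDs were chosen after the data were seen, and further values against the narrowed groups follow beside the genes.

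In the plasma cell programme, of 18 entries 16 were found and 13 measured against T cells, of which 10 were higher and 0 lower, with a median of 2.93 above the median gene. With TMM scaling 15 of 15 were higher. Over all genes 3.81% were higher on UMI totals and 19.6% with TMM. Against all other cells 10 of 12 were higher and 0 lower, at a median of 4.30, beside 4.26% higher over all genes. Against the narrowed groups 11 of 13 and 9 of 11 were higher, at medians of 3.85 and 5.07. Mzb1 was at 3097, 2889, 3372 and 3782 CPM in the members of sets 1 to 4, against 207, 56.1, 466 and 840 CPM in T cells and 228, 259, 73.2 and 131 CPM in all other cells. The lowest member value thus lay above the highest value of either comparison group. Its log2 difference from T cells was 4.00 above the median gene, and 10.69 against the narrowed T cells. Jchain was at 805, 701, 1223 and 1543 CPM in members and at 43.8, 6.10, 114 and 231 CPM in T cells. This was 4.30 above the median gene, and 10.87 against the narrowed T cells. Tnfrsf17 was at 149 to 192 CPM over the sets in members and 1.22 to 35.1 CPM in T cells.

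The other members of the list act in the ER or in commitment to secretion. Above the median gene against T cells stood the disulfide isomerase Txndc5 (3.85), the translocon subunit Ssr4 (3.06), the surface receptor Slamf7 (3.01) and the ER chaperone Hsp90b1 (2.93). The mannose-trimming factor Edem1 (2.70), the disulfide isomerase Pdia4 (2.59) and the signal peptidase subunit Sec11c (2.46) were also higher. Irf4 (2.24), the co-chaperone Dnajb9 (1.85) and Prdm1 (0.98) were not called on UMI totals and were called higher with TMM. Against the narrowed T cells Txndc5 stood at 6.01, Ssr4 at 4.32, Slamf7 at 4.09 and Hsp90b1 at 3.85. Prdm1 is also used by effector T cells, and was at 103 CPM in members, 135 CPM in T cells and 13.3 CPM in all other cells. Xbp1 was at 75.8 CPM in members and 15.1 CPM in T cells, a mean under the minimum of 50.

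The promoters of 3 genes of the plasma cell list hold the ER stress response element (ERSE), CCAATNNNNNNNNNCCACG. The unfolded protein response factors ATF6 and XBP1 are known to act through this site. It is found, on either strand, in 21 of 27457 RefSeq promoter windows of 300 bases (0.0765%, assembly GRCr8, 250 bases before to 50 after the start). Among 17 windows matched to the plasma cell list, 3 hold it (Hsp90b1, Xbp1 and Derl3), as does that of Creld2, a gene among the highest against T cells outside the lists. Of these 3 only Hsp90b1 was measured. Xbp1 was under the minimum of 50 CPM, and Derl3 was not among the listed genes found, so it has no value here. The octamer ATGCAAAT, bound by OCT factors, was in 1.64% of all windows and in none of the 17. The element UPRE, TGACGTGG, was in 0.637% and also in none of them, but in that of Ckap4, described below. A match is a description of letters, not of binding, and these windows are shown because they hold the element, whose fixed bases are in capitals:
Hsp90b1, chr7:23012244-23012543, minus strand: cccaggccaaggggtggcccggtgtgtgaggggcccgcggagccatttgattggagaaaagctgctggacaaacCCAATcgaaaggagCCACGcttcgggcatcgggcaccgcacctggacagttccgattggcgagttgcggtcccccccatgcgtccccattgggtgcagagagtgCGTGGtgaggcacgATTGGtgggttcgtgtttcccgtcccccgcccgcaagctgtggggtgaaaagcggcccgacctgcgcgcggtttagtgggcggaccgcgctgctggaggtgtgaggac
Xbp1, chr14:84604373-84604672, plus strand: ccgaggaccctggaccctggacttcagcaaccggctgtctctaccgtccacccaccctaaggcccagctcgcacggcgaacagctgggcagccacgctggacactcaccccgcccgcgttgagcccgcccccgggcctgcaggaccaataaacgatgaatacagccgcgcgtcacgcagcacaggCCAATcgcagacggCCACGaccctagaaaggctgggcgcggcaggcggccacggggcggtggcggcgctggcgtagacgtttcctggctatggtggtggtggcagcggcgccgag
Derl3, chr20:12766416-12766715, minus strand: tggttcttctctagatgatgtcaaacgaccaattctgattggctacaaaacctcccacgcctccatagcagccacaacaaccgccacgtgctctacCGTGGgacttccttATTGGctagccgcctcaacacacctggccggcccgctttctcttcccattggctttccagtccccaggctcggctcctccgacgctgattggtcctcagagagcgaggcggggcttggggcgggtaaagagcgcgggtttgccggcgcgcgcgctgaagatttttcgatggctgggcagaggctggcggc
Creld2, chr7:121789134-121789433, plus strand: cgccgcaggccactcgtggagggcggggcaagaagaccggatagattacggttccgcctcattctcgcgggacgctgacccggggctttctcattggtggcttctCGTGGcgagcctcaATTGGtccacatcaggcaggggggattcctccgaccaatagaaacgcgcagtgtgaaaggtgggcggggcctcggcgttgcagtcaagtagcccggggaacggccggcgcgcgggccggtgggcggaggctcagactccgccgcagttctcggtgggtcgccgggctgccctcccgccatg
The window of Hsp90b1 holds the element at both a forward and a reverse match. Of the 21 genes with the element, 8 were measured against T cells, and all 8 stood above the median gene. Of these, 3 were called higher, namely Creld2, Hsp90b1 and the co-chaperone Dnajc3 (2.41), and 2 lower, Hnrnpa3 (0.19) and Zfand2a (0.24). Over all measured genes 3.81% were called higher and 67.2% lower. The chaperones Hspa5 (0.88), Calr (1.06) and Canx (0.89) were not called.

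Outside the lists, the 12 highest genes against T cells were of several kinds. Cryba4, a crystallin gene, was at 146 CPM in members and 13 CPM in T cells, 4.86 above the median gene. It was followed by Tpst1 (3.93), which sulfates tyrosines in the Golgi, the ER sheet protein Ckap4 (3.85) and Creld2 (3.65), an ER protein induced by misfolded proteins. Next were the lymphocyte adaptor Lax1 (3.48), the Golgi GTPase Arf3 (3.44), the DNA polymerase subunit Pold4 (3.31) and the nucleosome protein Hmgn3 (3.11). Edem2 (3.08) and Sdf2l1 (3.03) act in ER quality control, Hm13 (2.99) cleaves signal peptides and Slc3a2 (2.95) is a chain of amino acid carriers. Against the narrowed T cells, where Cryba4 was at 0.835 CPM, the order of these 12 changed to Cryba4 (9.0), Ckap4 (6.57), Arf3 (5.75), Creld2 (5.63) and Tpst1 (4.92), with the others at 3.52 to 4.45. Against all other cells the highest were Lax1 (5.59), Cryba4 (5.33), Ckap4 (4.67), Arf3 (4.66), Emp3 (4.63), Hcst (4.59), Creld2 (4.53) and Tapbp (4.14), the last a loader of class I peptides. Against the narrowed other cells Cryba4 (8.76) and Lax1 (8.40) led these 8, with the others at 4.85 to 5.80. The lowest against T cells were Faslg (-9.07), Bcl11b (-8.72), Trat1 (-8.13), Xcl1 (-8.01), Cd96 (-7.94), Cd247 (-7.89), Fyb1 (-7.48) and Fgl2 (-7.35), genes of T and NK cell signalling and effector function, with 1 to 9 UMIs each in all members; the T cells were selected on the Cd3 genes.

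Genes of the B cell receptor and B cell surface were mostly too low to be measured. Over all genes measured against T cells 3.81% were higher and 67.2% lower, and with TMM 19.6 and 11.6%. In the receptor list 6 of 21 found genes were measured against T cells, 2 higher and 3 lower. The higher ones were Cd79b, which the rule used (4.51), and the adaptor Blnk (2.97, 77.0 against 25.5 CPM). Of the surface receptors 4 of 22 were measured, 0 higher and 4 lower, at a median of -0.40. With TMM 1 of 5 was higher, Ly86. Of the B lineage transcription factors 4 of 22 were measured, 1 higher (Pou2af1, 4.16) and 1 lower (Id2, -4.16), at a median of 2.24. With TMM 4 of 5 were higher. Ms4a1 was at 34.5 CPM in members and 3.87 CPM in T cells. The receptors TACI (Tnfrsf13b) and BAFF receptor (Tnfrsf13c) were at 43.7 and 41.9 CPM in members, against 5.11 and 13.7 CPM in T cells. No gene of the B cell precursor list was measured, and the recombinase gene Rag1 had 0 UMIs in members.

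Class II presentation genes stood above T cells but near all other cells, which include microglia. Against T cells 3 of 6 measured genes were higher and 1 lower, at a median of 2.34, beside 3.81 and 67.2% over all genes. With TMM 6 of 7 were higher, beside 19.6% over all genes. Cd74 was at 2.76, and the class II chains RT1-Ba and RT1-Da at 2.80 and 2.43, while the protease Ctss (-0.68) was lower. Against all other cells 0 of 6 were higher and 2 lower, at a median of 0.89, beside 4.26 and 63.3% over all genes. TMM called 4 of 7 higher, beside 30.8% over all genes.

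Among the remaining lists, cytokines and chemokines stood lowest against T cells, at a median of -4.16, with 1 of 6 measured genes higher and 5 lower. Over all genes 3.81% were higher and 67.2% lower. The T cell and myeloid attractants Ccl5 (-9.53), Ccl4 (-4.70) and Ccl3 (-3.62) were lower, and Ifng had 0 UMIs in members. The higher gene was Cxcl10, an interferon-induced attractant of activated T cells, at 739, 803, 1069 and 1458 CPM in the members of sets 1 to 4. T cells had 645, 561, 418 and 270 CPM and all other cells 357, 452, 207 and 285 CPM, below the members in every set. Cxcl10 was found in 156 members (54.9%), and after thinning in 31.7% of members, 11% of T cells, 12.5% of all other cells and 0.818% of the oligodendrocyte gate. Within members it was held by 122 of the 206 AABR07060872.1 cells and 15 of the 43 cells low in both IDs.

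Of the interferon response genes 0 of 8 measured were higher and 7 lower against T cells (median -1.01; with TMM 0 of 6 higher and 2 lower), beside 3.81% higher and 67.2% lower over all genes. Against all other cells 0 of 5 were higher and 2 lower, and with TMM 4 of 6 were higher and 2 lower, beside 30.8 and 17.7% over all genes, so the scaling decides the count. Homing and adhesion genes had 0 of 9 higher and 7 lower against T cells. Against all other cells 2 of 5 were higher and 1 lower, beside 4.26 and 63.3% over all genes. The latter 2 were Cxcr4, the receptor for CXCL12 that holds plasma cells in bone marrow (118 CPM in members, 997 CPM in T cells, 20.5 CPM in all other cells), and Cd69, which retains lymphocytes in tissue (511, 890 and 41.9 CPM). TMM called 7 of 8 homing and adhesion genes higher than in all other cells and 0 lower, beside 30.8 and 17.7% over all genes. Against T cells it called 1 of 10 higher and 3 lower, beside 19.6 and 11.6% over all genes. Ccr10, a receptor of mucosal and skin plasma cells, was found in 117 members, at 53.3 CPM against 8.28 CPM in T cells. Ccr7 and Cxcr5, receptors of lymphoid follicles and T zones, had 5 and 0 UMIs in members.

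Survival genes had 1 of 6 higher (Tnfrsf17) and 5 lower, at -0.68. Naive and memory genes had 1 of 4 higher (Mzb1) and 3 lower, at -2.22, with Cd27, a memory marker in human B cells, at 0 UMIs in members and in 13.6% of T cells after thinning. Of the age-associated and B-1 list 3 genes were measured, 0 higher and 3 lower. Of the germinal centre list only Basp1 was measured (2.39, higher). Of the costimulation list 1 gene, Cd83, was measured and lower (-0.03). Of the cell cycle list 4 genes were measured and all 4 were lower (-0.84). The immediate early list had 0 of 16 measured genes higher and 9 lower (-0.19), heat shock genes 0 of 9 higher and 7 lower (-0.45) and glucocorticoid response genes 0 of 8 higher and 7 lower (-1.31). No gene of the innate sensing list was measured. Over all measured genes 67.2% were lower. With TMM, 1 of 5 cell cycle, 5 of 16 immediate early, 2 of 9 heat shock and 5 of 8 glucocorticoid response genes were lower, beside 11.6% over all genes, and the glucocorticoid list had the highest share of the 4.

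Across sets, heat shock, interferon-induced and blood transcripts in members differed several-fold. Hspa1b, the inducible heat shock chaperone, was at 28.7, 25, 198 and 228 CPM in the members of sets 1 to 4. It was at 305, 618, 1250 and 1011 CPM in T cells and 1622, 2009, 3813 and 4641 CPM in all other cells, so sets 3 and 4 were the higher ones in each cell group. Hsph1 was also higher in sets 3 and 4, at 18.7, 31.0, 81.7 and 171 CPM in members, as were Dnajb1 at 116, 135, 291 and 491 CPM and Hspd1 at 41.4, 73.3, 137 and 286 CPM. Ifi27, an interferon-induced gene, was higher in sets 1 and 2, at 84.1, 94.1, 25.5 and 20.3 CPM in members and 837, 471, 255 and 172 CPM in T cells. The haemoglobin gene Hbb was at 80.7, 64.3, 2.68 and 1.60 CPM in members and 11626, 5953, 83.6 and 95.3 CPM in all other cells. The neutrophil genes S100a9, at 0.667, 17.3, 115 and 0.535 CPM in members, and S100a8, at 1.33, 13.1, 107 and 0.535 CPM, had wider ranges than these. What free RNA, tissue handling or condition added to these set differences was not tested.

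**Figure D3:**
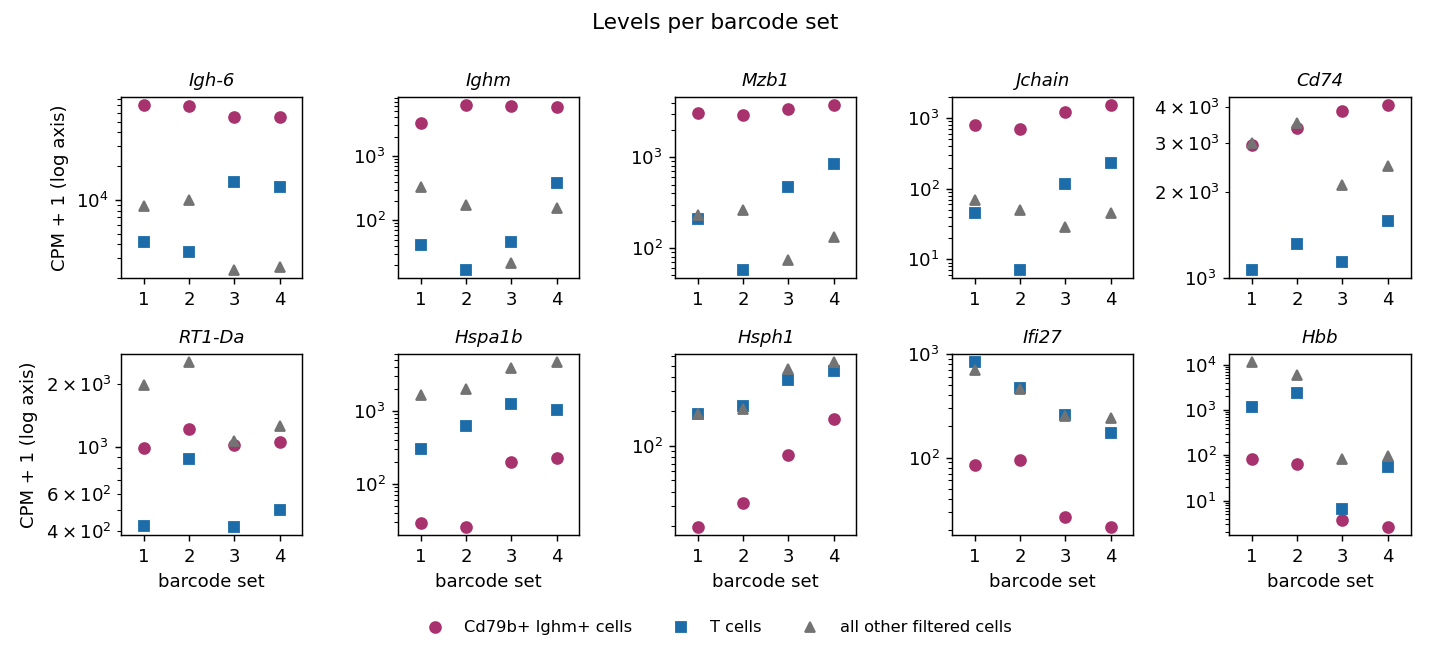
Each panel gives 1 gene's level (CPM + 1, log axis) in barcode sets 1 to 4, with circles for Cd79b+ Ighm+ cells, squares for T cells and triangles for all other filtered cells; each point is a pooled sum, with no error bar because each set is 1 library. Mzb1 and Jchain are highest in members in every set, while Hspa1b is higher and Hbb lower in sets 3 and 4 in members and in all other cells.

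Igh-6 and Ighm varied less. Igh-6 was at 70392, 68275, 55185 and 54959 CPM in members and Ighm at 3257, 6230, 5991 and 5743 CPM. AABR07034739.1 took 8.54, 5.78, 9.26 and 1.93% of member UMIs, and its cells numbered 11, 12, 7 and 4. Another unnamed ID, AABR07065792.1, was at 399, 105, 1009 and 6201 CPM, carried by 14, 9, 3 and 20 cells, with 2249 UMIs in its highest cell. In all, 16 transcripts reached at least 100 UMIs in 1 member while found in under 20% of members, and all 16 were IDs with no gene name.

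Markers of most other cell types were low in members. An exception was the list of plasmacytoid dendritic cell markers, at 125 CPM in members, 244 CPM in T cells and 210 CPM in all other cells. Relative to the median gene it stood at 0.51 against T cells, on 1 measured gene. Against all other cells it stood at 0.67, on 2 measured genes, 0 higher and 1 lower. TMM called 1 of 2 higher and 0 lower in both comparisons. T cell markers, of which 6 of 13 found (Cd3d, Cd3e, Cd3g, Cd5, Cd8a and Themis) had 0 UMIs, summed to 14.3 CPM (8.0 to 21.4 over the sets) against 3654 CPM in T cells; the rule itself set the Cd3 genes at 0. Oligodendrocyte markers summed to 158 CPM (84.1 to 233) with none at 0, against 14719 CPM in all other cells. Microglia markers summed to 115 CPM (97.3 to 156) with Siglech at 0, against 7783 CPM. The rule limited Mag, Mog and Mobp and likewise C1qa, C1qb and C1qc, so both low sums were set in part by selection. Neutrophil markers were at 39.9 CPM but at 232 CPM in set 3, through S100a8 and S100a9, which were found in 9 and 10 members. In T cells, whose rule set no such limits, oligodendrocyte markers summed to 2397 CPM and microglia markers to 1277 CPM.

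**Figure D4:**
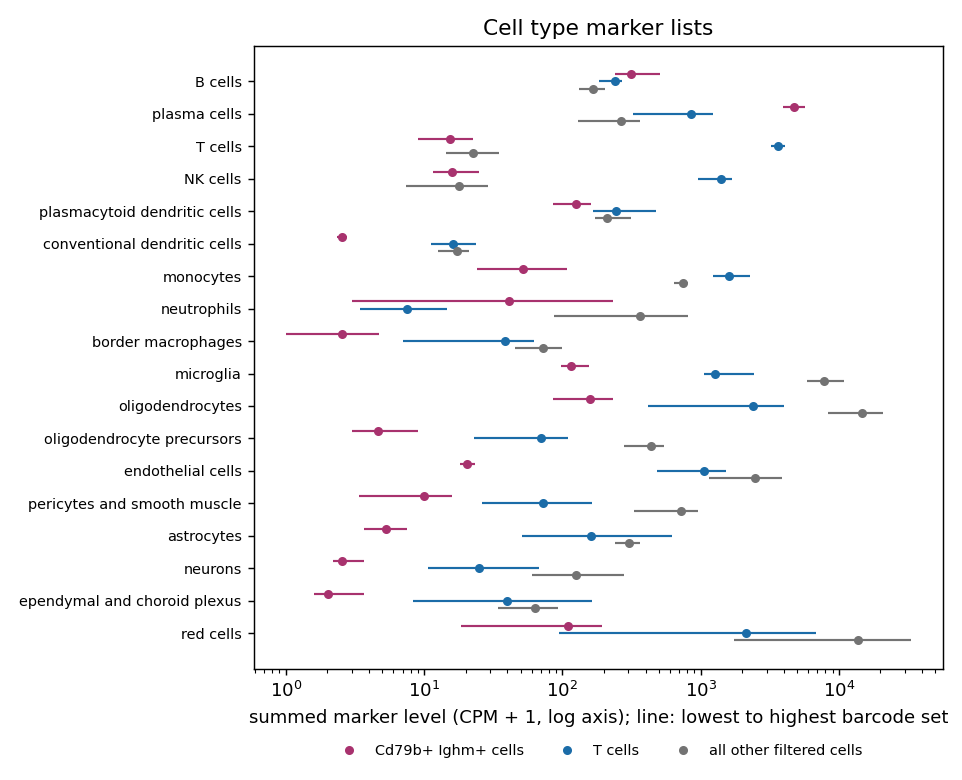
Summed level of each cell type marker list apart from the 3 given markers (CPM + 1, log axis) in Cd79b+ Ighm+ cells, T cells and all other filtered cells; points are pooled sums and lines run from the lowest to the highest barcode set. Among the lists drawn, members stand highest for plasma cell markers, at 4750 CPM, and at 158 CPM or less for the lists of brain and myeloid cells. The member rule itself limited some T cell, oligodendrocyte, microglia and endothelial markers.

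The rule divided like cells at most of the edges given here. Of the filtered cells, 552 had at least 2 UMIs of Cd79b, 371 of them had Ighm, 337 of those no Cd3 UMI, and 284 met the remaining limits. Just inside, 94 members had exactly 2 UMIs of Cd79b, with Mzb1 at 2763 CPM and Jchain at 853 CPM. Just outside, 108 cells with exactly 1 UMI of Cd79b met the rest of the rule, with Mzb1 at 2652 CPM and Jchain at 927 CPM, and 96 of them were high in either unnamed ID. Another 146 cells met all but Ighm, which was at 0, with Igh-6 at 106899 CPM and Mzb1 at 2883 CPM. A further 34 cells met the minimum of both genes but held a Cd3 UMI, with Mzb1 at 4056 CPM. Less like members were 179 cells with Ighm but 0 UMIs of Cd79b that met the rest. Their median was 5437 UMIs, Mzb1 was at 1605 CPM, and 77 of them were high in either unnamed ID.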

How the data were processed

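The authors deposited 1 matrix of raw UMI counts, 32623 genes by 31638 barcodes, written by Cell Ranger 5.0.0 per the file headers. The submitters' processing notes name Cell Ranger, STAR and the genome build Rnor_6.0, and per the labels' protocols the libraries used a 10x Genomics 3' kit. Annotation and cell calling settings: not given in the sources used here. Of these barcodes, 28879 passed the filter.

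Counts were summed per cell group and set and divided by the total UMIs (CPM). Ratios carry exact conditional binomial 95% intervals, shares exact Clopper-Pearson ones, for counting error only. A count of 0 was set to a floor of 3 counts over the group. No p-value was computed: members were chosen by measured values of the same cells, and the sets of the pooled matrix carry no condition. TMM factors came from edgeR 4.0.16 (R 4.3.3), doublets from Scrublet in scanpy 1.11.5 (per set, expected share 6%, seed 1). Thinning to 1000 UMIs left out 0 members, 8 T cells, 1682 of all other filtered cells and 41 of the oligodendrocyte gate. The comparison was tested on simulated counts. Python 3.11.15, numpy 2.4.6, scipy 1.17.1 and pandas 2.3.3 were used.

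Genes were named by a rule: those of the selection, the listed genes found, and outside the lists the 12 highest and 8 lowest against T cells and the 8 highest against other cells. The members and lists were chosen with earlier results of these data known. Limits on the unnamed IDs (10%, 1%), the dividing sum, the genes compared within members, the promoter motifs and the expression relative to the median gene were chosen after values were seen, as were genes named for their difference between sets. Symbols were those of the gene list; Cd79a and a few others were matched through RefSeq synonyms. Promoter sequences are from RefSeq, assembly GRCr8, and their coordinates are not those of the deposited build.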

Additional observations from a re-analysis of the deposited data

Results flagged for a closer look

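Outside both the member and the T cell gates, 586 filtered cells had AABR07060872.1 or AABR07034739.1 at 10% of their UMIs or more, a signal in cells that no rule here collects. Of these, 319 had no UMI of Ighm and 387 had fewer than 2 UMIs of Cd79b. The members held 241, or 28.2%, of the 856 filtered cells at this level.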

How the results depend on the processing

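TMM gave 348 genes higher and 207 lower than in T cells, and 550 and 316 than in all other cells. Leaving both unnamed IDs and the immunoglobulin symbols out of the totals, chosen after seeing the data, gave 290 and 413, and 491 and 573. With no filter on low values the counts were 245 and 7269, and 434 and 9186. With a mean CPM of at least 100 they were 505 lower than in T cells, and 45 higher and 488 lower than in all other cells, with 6 plasma cell genes higher than in T cells, since fewer genes were measured. The rule found 430 cells with no Ighm minimum and 47 with the C1q, myelin and endothelial sums at 0. Igh-6 was found in 170 thinned members, and Ighg1 in 5, or in 10 with at least 2 UMIs. Without each barcode set in turn, 56 to 72 genes were higher and 1013 to 1160 lower than in T cells, 73 to 76 and 1032 to 1148 than in all other cells, and 9 to 11 plasma cell genes were higher. Pairing members with comparison cells of the same barcode set, by the mean of the within-set log2 ratios (CPM + 1, chosen after seeing the data), gave 68 higher and 1099 lower than in T cells, of which 61 and 1070 had the same call from pooled sums, and 72 and 1074 than in all other cells. In all, 86 recomputed counts stayed within 1.5 times. No gene with a call turned direction relative to the median gene, while 884 of its values left their counting interval and 837 did not. Between the titled samples no paired analysis was possible because each is 1 library and nothing ties a set to a title. Values resting on a few UMIs, such as Pax5 at 3 in all members, are imprecise.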
